A study of Arabidopsis thaliana with 12 samples.

Results

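Roots of the siz1-2 mutant were compared with roots of its Col-0 background in the absence of added auxin (MS medium), to describe how their transcriptomes differ. The series holds no other siz1 allele and no complemented line, so other differences of this line cannot be told apart from the loss of SIZ1. Each genotype had 3 libraries on MS, so 6 of the 12 libraries of the series enter the contrast itself. The members are genes with at least 1 FPKM (fragments per kilobase of transcript, scaled to the mapped fragments of the library) in at least 3 of the 12 libraries, which 18743 of the 23853 genes in the table reached. siz1-2 is a T-DNA insertion line in the Col-0 background, and both genotypes were grown as seedlings on 1/2 MS medium for 7 days at 22 °C after stratification, according to the labels. The labels name 0.5 µM IAA under the treatment protocol of every library, the MS libraries included, whereas their treatment field separates MS from IAA, and the grouping follows that field. The other 6 libraries (the same genotypes after 3 h of IAA) are used only to set the genotype difference beside a repeat in other libraries. What separates the replicates of a group (plates, days or pools of seedlings) was not stated, so p-values measure the spread between these libraries.

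SIZ1 is an E3 ligase that attaches the small protein SUMO to target proteins. SUMO attachment changes the activity, location or partners of many transcription factors and chromatin proteins, and loss-of-function siz1 plants are known for dwarfed growth, raised salicylic acid, altered flowering and altered responses to phosphate, nitrate, sugar, heat and auxin. In roots, SIZ1 has been tied to root system architecture under low phosphate and to lateral root patterning.

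SIZ1 itself had 14.8, 13.5 and 13.6 FPKM in siz1-2, against 26.2, 23.7 and 21.5 in Col-0 (limma log2FC -0.74 ± 0.13, adjusted p = 0.00563, where log2FC is the log2 fold change of siz1-2 over Col-0 and ± its standard error). The mutant libraries thus kept a reduced signal over this gene and none was at 0. In the 6 MS libraries the depth, read from the steps between low FPKM values, lay between 0.928 and 1.03 times a common scale, and the absolute depth is unknown because FPKM hold no counts. The MS library that stood apart most was siz1-2 replicate 3, with 304 genes over 1 on the log2 scale away from the mean of both other replicates, while the rest of the MS libraries had 54 to 172 such genes. The median log2 fold change over all genes tested was -0.083, with quartiles at -0.27 and 0.10, and centring each library on its median moved it to 0.04. Fold changes are on the scale of log2(FPKM + 0.5), which understates the change of genes near or under 0.5 FPKM. The RNA came from whole roots, in which fewer cells of a type and less RNA per cell cannot be told apart. Among the genes on either side of SIZ1 in the annotation, AT5G60390 (0.01), AT5G60400 (0.18), AT5G60430 (-0.55) and ARF4 (-0.06) had log2 fold changes that did not pass the test.

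In siz1-2 roots without auxin, 421 genes were differentially expressed (DEGs, whose adjusted p was below 0.05 and whose log2FC was at least 1 in size). They are 2.25% of the genes tested. Of these DEGs 242 were higher in siz1-2 (1.29%) and 179 lower (0.955%), by limma with Benjamini-Hochberg adjustment over all genes tested. By adjusted p alone, 994 genes passed (5.3%), 516 of them higher (2.75%) and 478 lower (2.55%), and these shares are the background for every list below. An unadjusted p under 0.05 was reached by 3484 of the 18743 genes tested, the background for counts of that kind. The lists were chosen with earlier results of these data known, so a list count set beside this background is a description. Higher DEGs made up 57.5% of the DEGs, against 72.5% (316 higher and 120 lower) when each library was centred on its median. The median log2 fold change was 1.35 among the higher DEGs and -1.28 among the lower ones, 38 rose by at least 2 on the log2 scale and 18 changed by -2 or less. In every DEG the 3 siz1-2 libraries lay apart from the 3 Col-0 libraries, a separation that 10.4% of all genes tested showed upwards and 22.2% downwards. The mean reached 5 FPKM in the higher genotype for 284 DEGs, and 137 stayed below it in both. Of the 421 DEGs, 288 kept an adjusted p under 0.05 whichever of the 12 libraries was left out and 133 lost it without at least 1 library. Where a lost call is given below, a log2FC range in brackets covers only the fits with 1 library left out. Without siz1-2 MS replicate 3 there were 201 higher and 140 lower DEGs.

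**Figure D1:**
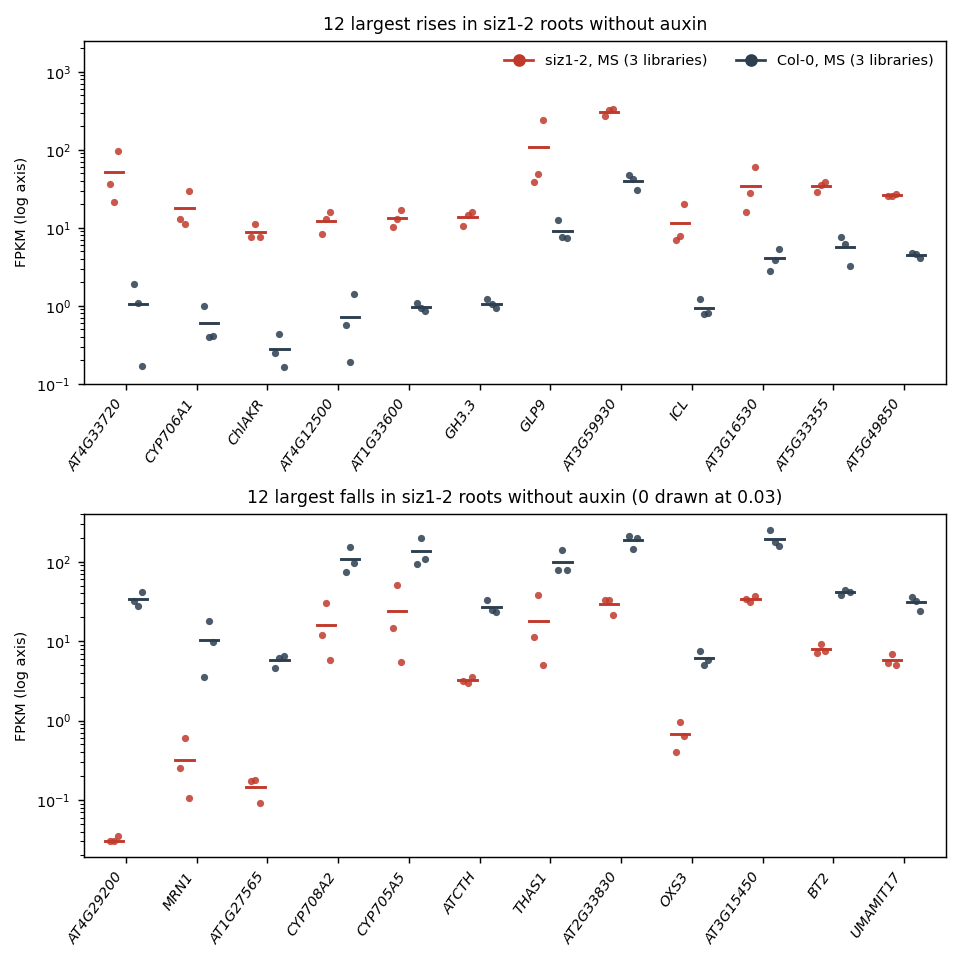
FPKM on a log axis of the 12 largest rises (top) and the 12 largest falls (bottom) among DEGs whose mean reached 5 FPKM in the higher genotype, with a point per library, siz1-2 to the left of Col-0, and a bar at the mean of 3 libraries. The genotypes lie apart for all 24 genes. The siz1-2 points of AT4G33720, GLP9 and AT3G16530 are spread widely, with the same library (replicate 3) on top.

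The 12 largest rises included genes for secreted proteins and lectins. AT4G33720, which encodes a secreted protein of the CAP family to which the marker PR1 belongs, had 36.4, 21.7 and 96 FPKM in siz1-2, against 1.93, 1.1 and 0.169 in Col-0 (limma log2FC 4.96 ± 0.59, adjusted p = 0.000358). GLP9, a germin-like protein of the cell wall, had 38.5, 49.6 and 240.1 FPKM in siz1-2, against 12.5, 7.74 and 7.42 in Col-0 (log2FC 3.04 ± 0.49, adjusted p = 0.00263). For both genes siz1-2 replicate 3 was far above the other mutant libraries, and all 3 mutant libraries were above every Col-0 library. Without siz1-2 MS replicate 3 both kept the call, at a log2FC of 4.38 for AT4G33720 and 2.22 for GLP9. Lectins, which bind sugars of cell walls and microbes, were represented by the legume lectin AT3G16530 with 15.9, 27.7 and 60.1 FPKM in siz1-2, against 2.8, 3.92 and 5.41 in Col-0 (log2FC 2.78 ± 0.42, adjusted p = 0.00162). The mannose-binding lectin AT5G49850 had 25.8, 25.4 and 27.5 FPKM in siz1-2, against 4.74, 4.57 and 4.09 in Col-0 (log2FC 2.43 ± 0.14, adjusted p = 1.19e-06), with the mutant libraries close together. The defensin-like gene AT5G33355 had 28.7, 35.3 and 38.5 FPKM in siz1-2, against 7.52, 6.2 and 3.21 in Col-0 (log2FC 2.56 ± 0.26, adjusted p = 0.000101). Its share of exonic 50-base stretches that recur elsewhere in the reference genome is 28.1%, so reads may be exchanged with a copy. The same holds at 22.2% for the defensin-like AT3G59930, which had a log2 fold change of 2.95 ± 0.17. In each of the defensin-like genes 137 stretches recur, and whether these genes share them was not tested. AT4G12500, of the lipid-transfer superfamily, was the other secreted member, at 3.47 ± 0.33.

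Metabolic enzymes and a gene with leucine-rich repeats made up the rest of these rises. CYP706A1, a cytochrome P450, had 12.8, 11.3 and 29.6 FPKM in siz1-2, against 0.997, 0.403 and 0.413 in Col-0 (log2FC 3.97 ± 0.37, adjusted p = 6.04e-05), although 46.6% of its 50-base stretches recur elsewhere. ChlAKR, a chloroplast aldo-keto reductase that detoxifies reactive carbonyls, had 7.53, 11.2 and 7.62 FPKM in siz1-2, against 0.247, 0.433 and 0.166 in Col-0 (log2FC 3.56 ± 0.23, adjusted p = 2.93e-06). ICL, the isocitrate lyase of the glyoxylate cycle that turns fat into sugar precursors in germinating seeds, had 7.06, 7.75 and 20.2 FPKM in siz1-2, against 1.22, 0.789 and 0.803 in Col-0 (log2FC 2.93 ± 0.32, adjusted p = 0.000158). The leucine-rich repeat gene AT1G33600 had 10.3, 12.9 and 16.9 FPKM in siz1-2, against 1.09, 0.942 and 0.85 in Col-0 (log2FC 3.22 ± 0.26, adjusted p = 1.99e-05). GH3.3, an enzyme that conjugates IAA to amino acids, completed the 12 and is described with the auxin genes.

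Markers of residual seed tissue were low and uneven across the libraries in which ICL rose. Summed over the 5 seed storage and oil body genes tested, they were at 0.654, 25.8 and 21.7 FPKM in siz1-2, against 3.8, 4.65 and 5.77 FPKM in Col-0. In siz1-2 replicates 2 and 3 most of the sum came from the storage protein genes CRA1 and CRU3. CRA1 had 0, 15.7 and 12.5 FPKM in siz1-2, against 0, 0 and 0.185 in Col-0 and did not pass (log2FC 3.09, adjusted p = 0.178). CRU3 had 0, 7.79 and 6.3 FPKM in siz1-2, against 0, 0 and 0 in Col-0 and did not pass either (adjusted p = 0.14). Both were listed at 0 in siz1-2 replicate 1. None of the 5 was called higher, with 4 at an unadjusted p under 0.05, and OLEO3, an oil body protein, was lower (log2FC -1.19, adjusted p = 0.0171), a call that was lost without Col-0 MS replicate 3 or without siz1-2 MS replicate 1 or 2 (log2FC between -1.47 and -0.96). In siz1-2 replicate 1, which had the lowest seed sum, ICL was at 7.06 FPKM, against 1.22 FPKM in its highest Col-0 library. The part of seed tissue in the ICL result was not tested.

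The deepest fall was in AT4G29200, annotated as related to beta-galactosidase, which was listed at 0, 0 and 0.0348 FPKM in siz1-2, against 32.4, 27.4 and 41.6 FPKM in Col-0. It was near 0 in the 3 siz1-2 libraries with IAA as well, and since a value of 0 gives no fold, none is stated. Its annotated neighbours RHS16 (0.28), OZF2 (0.5), GGT4 (-0.19) and PFK1 (0.06) did not pass the test. AT1G27565, an uncharacterised gene, had 0.172, 0.177 and 0.0928 FPKM in siz1-2, against 4.63, 6.16 and 6.52 in Col-0 (log2FC -3.27 ± 0.19, adjusted p = 1.19e-06), and 54.0% of its 50-base stretches recur elsewhere. AT5G42460, an F-box gene, was listed at 0 in all 3 siz1-2 libraries, against 3.32, 2.71 and 1.94 FPKM in Col-0. The reverse pattern was seen in RPB5E, a variant subunit of RNA polymerase, with 2.14, 2.33 and 1.69 FPKM in siz1-2, against 0.0981, 0.0983 and 0.0528 in Col-0 (log2FC 2.12 ± 0.23, adjusted p = 0.00014). Genes that were almost absent from one genotype were picked out after their values were seen, as those under 0.3 FPKM in all 6 libraries of one genotype and over 1 FPKM in all 6 of the other.

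Some of the largest falls were in genes known to respond to sugar, darkness or energy state. AT2G33830, of the dormancy and auxin associated family, had 33, 33.1 and 21.6 FPKM in siz1-2, against 213, 146 and 199.6 in Col-0 (log2FC -2.66 ± 0.22, adjusted p = 2.36e-05). AT3G15450, an aluminium-induced protein family member, had 34.1, 31 and 37 FPKM in siz1-2, against 255, 176 and 158 in Col-0 (log2FC -2.48 ± 0.23, adjusted p = 6.02e-05). BT2, a scaffold protein with BTB and TAZ domains that responds to sugar and nitrate, had 7.19, 9.14 and 7.5 FPKM in siz1-2, against 37.9, 44.4 and 42 in Col-0 (log2FC -2.31 ± 0.22, adjusted p = 6.72e-05). For all 3 genes every mutant library lay well below every Col-0 library, and the mutant libraries differed little among themselves. Other large falls were in genes of other roles. UMAMIT17, of a family of amino acid transporters, had 5.37, 6.87 and 5.05 FPKM in siz1-2, against 36.5, 31.8 and 24.3 in Col-0 (log2FC -2.31 ± 0.22, adjusted p = 7.37e-05). The zinc finger gene ATCTH had 3.2, 3.0 and 3.57 FPKM in siz1-2, against 32.6, 25 and 23.3 in Col-0 (log2FC -2.86 ± 0.21, adjusted p = 9.96e-06). OXS3, a nuclear stress tolerance factor, had 0.407, 0.973 and 0.632 FPKM in siz1-2, against 7.61, 5.01 and 5.83 in Col-0 (log2FC -2.52 ± 0.33, adjusted p = 0.000617). The 12 falls also included 4 triterpene genes, which form the next group.

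The region before AT2G33830 is shown because this gene combined one of the deepest falls with a high level in Col-0. It is the 300 bases immediately before the annotated gene start at chr2:14310609-14310908 (RefSeq assembly TAIR10.1, minus strand, written 5′ to 3′ towards the gene), with each TATCCA, a motif found in sugar-starvation promoters of cereals, in capitals.
AT2G33830: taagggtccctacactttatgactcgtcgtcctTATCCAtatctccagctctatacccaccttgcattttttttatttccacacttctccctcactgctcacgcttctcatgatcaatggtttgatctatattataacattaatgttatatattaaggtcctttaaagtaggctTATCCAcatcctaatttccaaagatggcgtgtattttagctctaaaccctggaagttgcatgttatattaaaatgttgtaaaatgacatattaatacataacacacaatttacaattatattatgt
The 2 copies start 267 and 126 bases before the gene start. On either strand, TATCCA occurs in 16.2% of the windows of this length before 27443 protein-coding genes, in 22.9% of those before lower DEGs (41 of 179) and in 16.9% of those before higher DEGs. Among the 12 largest rises and the 12 largest falls it occurs only before AT2G33830, BT2 and CYP706A1, the last of which is a rise. AT3G15450, with a similar fall and level in Col-0, has none. A match to these letters is a description of the sequence and no evidence of a bound factor.

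Triterpene synthesis in Arabidopsis roots is encoded by clusters of neighbouring, jointly expressed genes, among them the thalianol cluster and the marneral cluster, whose products shape root growth and the root microbiota. Of the 8 triterpene genes tested, 7 were lower in siz1-2 and none higher, against 2.55% of all genes lower, and the list's median log2 fold change was -2.45. THAS1, the synthase that makes thalianol, had 11.3, 38.3 and 5.05 FPKM in siz1-2, against 78.8, 140.1 and 78.8 in Col-0 (log2FC -2.81 ± 0.53, adjusted p = 0.0075). CYP708A2, which hydroxylates thalianol, had 11.9, 30.4 and 5.78 FPKM in siz1-2, against 75.5, 152 and 95.7 in Col-0 (log2FC -2.95 ± 0.42, adjusted p = 0.00113). CYP705A5, the next enzyme of the pathway, had 14.8, 51.8 and 5.4 FPKM in siz1-2, against 95.3, 202 and 109 in Col-0 (log2FC -2.94 ± 0.59, adjusted p = 0.0107). It was lost as a call without Col-0 MS replicate 2, where the difference was -2.61. In every one of these genes replicate 2 was the highest library of both genotypes, and the genotypes did not overlap.

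In the marneral cluster, MRN1, the marneral synthase, had 0.25, 0.596 and 0.107 FPKM in siz1-2, against 3.5, 17.8 and 9.8 in Col-0 (log2FC -3.52 ± 0.43, adjusted p = 0.000406). CYP71A16, which oxidises marneral, had 7.52, 17.4 and 4.19 FPKM in siz1-2, against 26.3, 52 and 35.9 in Col-0 (log2FC -2.08 ± 0.4, adjusted p = 0.00775). CYP705A12, the next gene along the chromosome, had 2.53, 6.4 and 1.4 FPKM in siz1-2, against 7.46, 18.6 and 9.59 in Col-0 (log2FC -1.76 ± 0.41, adjusted p = 0.0242). This call was lost without Col-0 MS replicate 2 or 3 or without siz1-2 MS replicate 1 or 3 (log2FC between -2.27 and -1.33). CYP705A1, which cleaves arabidiol, had 9.19, 9.46 and 6.69 FPKM in siz1-2, against 14.8, 16.9 and 15.3 in Col-0 (log2FC -0.87 ± 0.16, adjusted p = 0.00563). PEN1, the arabidiol synthase, had 14.5, 13.6 and 10.9 FPKM in siz1-2, against 16.7, 21.4 and 21.1 in Col-0 and did not pass the test (log2FC -0.59 ± 0.19, adjusted p = 0.0977). The list symbols THAA1 and THAA2 matched no gene. The acyltransferase gene AT5G47980 of the thalianol cluster, which was not among the list genes tested, was lower too (log2FC -1.94, adjusted p = 0.0434). Its call was lost without any 1 MS library except siz1-2 MS replicate 2, without Col-0 IAA replicate 2 or without siz1-2 IAA replicate 1, 2 or 3, and in several other settings (log2FC between -2.64 and -1.43). AT5G47980, CYP705A5, CYP708A2 and THAS1 are consecutive in the gene table, as are CYP705A12, CYP71A16 and MRN1.

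**Figure D2:**
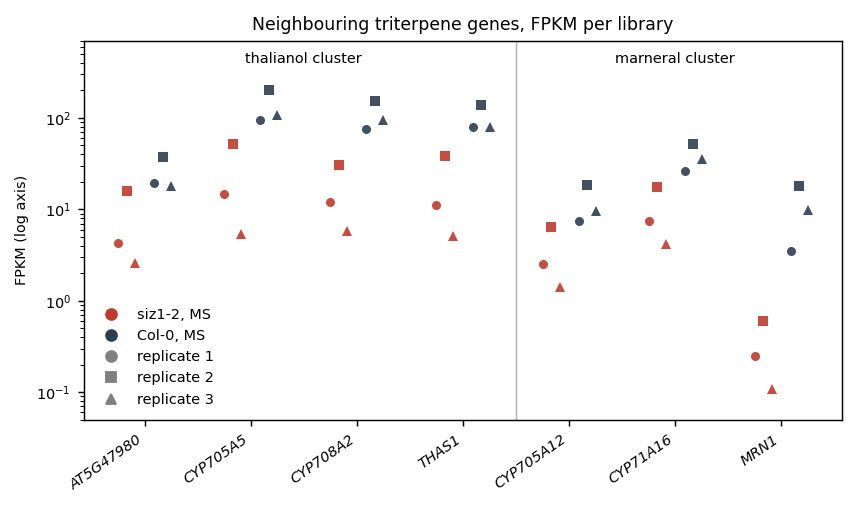
FPKM per library on a log axis of the neighbouring genes of the thalianol and marneral clusters, siz1-2 to the left of Col-0, with the replicate number as the marker shape. In all 7 genes each siz1-2 library lies under the Col-0 library of the same number, and replicate 2 is the highest of both genotypes.

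The circadian clock of plants runs on a loop in which the morning factors CCA1 and LHY repress evening genes and are repressed in turn by PRR proteins and by the evening complex of ELF3, ELF4 and LUX. RVE4 and RVE8 activate evening genes with the help of LNK proteins. The time of day at harvest was not given in the sources used here. Of the 22 clock genes tested, 7 were lower in siz1-2 and 2 higher, against 2.55% and 2.75% of all genes, with a median log2 fold change of -0.47. With the replicate number as a block in the 6 MS libraries, 12 were lower.

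Morning genes made up the lower members. LHY had 2.15, 2.11 and 1.79 FPKM in siz1-2, against 6.02, 4.92 and 5.05 in Col-0 (log2FC -1.21 ± 0.18, adjusted p = 0.00151). RVE4 had 14, 16.3 and 14.9 FPKM in siz1-2, against 27, 25.6 and 29.6 in Col-0 (log2FC -0.84 ± 0.14, adjusted p = 0.00324). RVE8 had 2.69, 1.96 and 1.96 FPKM in siz1-2, against 4.36, 4.96 and 5.24 in Col-0 (log2FC -0.99 ± 0.19, adjusted p = 0.00688). In each of these genes all mutant libraries lay below all Col-0 libraries. CCA1 had 2.92, 1.99 and 1.46 FPKM in siz1-2, against 5.0, 5.89 and 5.53 in Col-0 (log2FC -1.22 ± 0.31, adjusted p = 0.0371), with the genotypes apart. Its call was lost without any 1 MS library except siz1-2 MS replicate 1 or without siz1-2 IAA replicate 1 or 2, and with no filter and with the replicate block within treatment (log2FC between -1.43 and -1.03). RVE1, a related MYB factor that links the clock to auxin synthesis, had 1.45, 1.65 and 1.35 FPKM in siz1-2, against 3.84, 2.94 and 3.4 in Col-0 (log2FC -0.97 ± 0.19, adjusted p = 0.0103). It passed no longer without Col-0 MS replicate 1, where the difference was -0.89. LNK3 (AT3G12320) was lower as well (log2FC -0.88, adjusted p = 0.0255), and lost the call without Col-0 MS replicate 2 or 3 or without siz1-2 MS replicate 1 or 2 (log2FC between -0.98 and -0.74). LNK4 (AT5G06980) had a log2FC of -0.55 (adjusted p = 0.0405) and lost the call without any 1 MS library except Col-0 MS replicate 1 or without siz1-2 IAA replicate 1, 2 or 3, and in several other settings (log2FC between -0.65 and -0.45).

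A pair of members of the evening complex moved the other way. ELF4 had 23.6, 25.3 and 20.8 FPKM in siz1-2, against 11, 13.4 and 9.41 in Col-0 (log2FC 1.02 ± 0.2, adjusted p = 0.00921), with every mutant library above every Col-0 library. LUX had 13.4, 12.7 and 9.92 FPKM in siz1-2, against 6.88, 9.07 and 6.6 in Col-0 (log2FC 0.64 ± 0.16, adjusted p = 0.0391). That call was lost without Col-0 MS replicate 1 or 3, without siz1-2 IAA replicate 1, 2 or 3 or without siz1-2 MS replicate 1 or 2, and with no filter and with the replicate block within treatment (log2FC between 0.56 and 0.78). ELF3, the other part of the complex, did not pass at -0.67 (adjusted p = 0.0882). Nor did PRR9 at -0.45 (adjusted p = 0.532), of whose 50-base stretches 41.1% recur elsewhere, PRR7 at -0.79 (adjusted p = 0.187), PRR5 at 0.12, TOC1 at -0.07 or GI, a stabiliser of evening proteins, at -0.02. The members called were 4 lower when genes under 5 FPKM were dropped or when Col-0 MS replicate 2, Col-0 MS replicate 3 or siz1-2 MS replicate 2 was left out, and 11 lower without Col-0 IAA replicate 1.

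**Figure D3:**
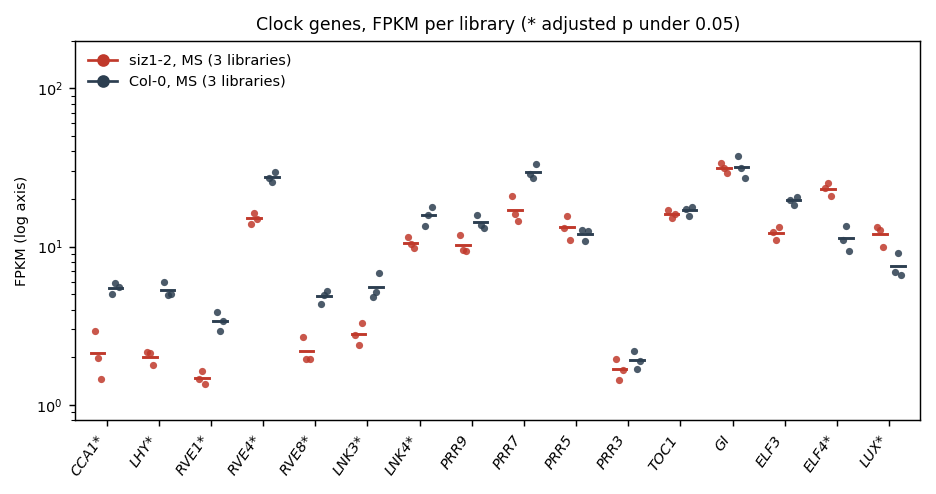
FPKM per library on a log axis of 16 clock genes, siz1-2 to the left of Col-0, with a bar at the mean of 3 libraries and a star on genes with an adjusted p under 0.05. The starred morning genes on the left lie lower in siz1-2, ELF4 and LUX on the right lie higher, and TOC1 and GI overlap.

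The regions before CCA1, LHY and LUX are shown because they carry the motifs by which clock genes are usually read. Each is the 300 bases immediately before the annotated gene start in TAIR10.1, 5′ to 3′ towards the gene, at chr2:19245291-19245590 (plus strand) for CCA1, chr1:37872-38171 (minus strand) for LHY and chr3:17182742-17183041 (plus strand) for LUX. Capitals mark the G-box CACGTG, bound by bHLH and bZIP factors and identical on both strands, and in LUX also the evening element AAAATATCT, bound by CCA1-type factors.
CCA1: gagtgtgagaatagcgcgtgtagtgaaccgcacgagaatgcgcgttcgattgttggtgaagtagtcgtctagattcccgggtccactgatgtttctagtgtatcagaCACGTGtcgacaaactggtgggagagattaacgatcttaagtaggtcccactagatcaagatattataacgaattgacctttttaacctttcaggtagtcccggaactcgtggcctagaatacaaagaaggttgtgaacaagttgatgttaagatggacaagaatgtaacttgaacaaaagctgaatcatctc
LHY: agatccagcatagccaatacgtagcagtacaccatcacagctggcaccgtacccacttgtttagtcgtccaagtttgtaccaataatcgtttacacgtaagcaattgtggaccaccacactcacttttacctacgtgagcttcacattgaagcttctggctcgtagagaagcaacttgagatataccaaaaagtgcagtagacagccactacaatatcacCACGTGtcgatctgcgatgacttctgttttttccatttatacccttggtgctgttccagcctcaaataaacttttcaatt
LUX: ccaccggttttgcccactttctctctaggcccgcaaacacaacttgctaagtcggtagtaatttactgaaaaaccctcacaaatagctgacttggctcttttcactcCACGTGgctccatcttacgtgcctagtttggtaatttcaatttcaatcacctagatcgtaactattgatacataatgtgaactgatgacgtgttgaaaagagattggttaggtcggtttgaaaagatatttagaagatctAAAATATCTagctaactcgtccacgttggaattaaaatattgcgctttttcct
The G-box starts 193 bases before CCA1, 80 before LHY and 193 before LUX, and the evening element starts 53 bases before LUX. The G-box occurred in 7 of the 22 windows before tested clock genes (31.8%), against 7.09% of all windows, and in 4 of the 7 lower members (CCA1, LHY, RVE1 and LNK3). It occurred before 25 of the 179 lower DEGs (14.0%) and before 15 of the 242 higher DEGs (6.2%). The evening element, searched on both strands, occurred in 4 clock windows (TOC1, PRR5, LUX and FKF1, 18.2%), against 2.79% of all windows.

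Flavonoids are root pigments and signals made from phenylalanine, and flavonols among them slow auxin transport. Of the 17 flavonoid genes tested, 8 were higher in siz1-2 and 1 lower, against 2.75% and 2.55% of all genes, and the median log2 fold change was 0.49. C4H, which opens the phenylpropanoid route, had 408, 476 and 442 FPKM in siz1-2, against 282, 300.4 and 269.8 in Col-0 (log2FC 0.63 ± 0.11, adjusted p = 0.00378). TT5, the chalcone isomerase, had 61.8, 56.8 and 58.1 FPKM in siz1-2, against 33.8, 34.2 and 29 in Col-0 (log2FC 0.86 ± 0.11, adjusted p = 0.000603). FLS1, the flavonol synthase, had 143, 123 and 108 FPKM in siz1-2, against 64.5, 56.4 and 46.2 in Col-0 (log2FC 1.16 ± 0.15, adjusted p = 0.000512), the largest rise of the list. UGT78D2, which attaches glucose to flavonoids, had 51.8, 47 and 42.6 FPKM in siz1-2, against 27.4, 30.2 and 21 in Col-0 (log2FC 0.85 ± 0.15, adjusted p = 0.00604). All 4 kept their call in every alternative, and none overlapped between the genotypes.

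The other 4 higher members were less stable. MYB12, the activator of the flavonol genes, had 14, 14 and 13.6 FPKM in siz1-2, against 9.09, 9.35 and 8.51 in Col-0 (log2FC 0.6 ± 0.13, adjusted p = 0.0179). It lost the call when any 1 of the 6 MS libraries was left out (log2FC between 0.57 and 0.63). F3H, flavanone hydroxylase, had a log2FC of 0.58 (adjusted p = 0.0312) and lost the call without Col-0 MS replicate 2 or 3 or without siz1-2 MS replicate 1 or 2, and without the variance trend and with quantile normalization (log2FC between 0.49 and 0.68). TT7, the hydroxylase that makes quercetin precursors, had a log2FC of 0.71 (adjusted p = 0.0337) and lost the call without any 1 MS library except siz1-2 MS replicate 3, and with the replicate block within treatment (log2FC between 0.61 and 0.83). CHIL, a helper of chalcone synthase, had a log2FC of 0.59 (adjusted p = 0.03) and lost the call without Col-0 MS replicate 2 or 3 or without siz1-2 MS replicate 1 or 2, and without the variance trend (log2FC between 0.5 and 0.68). CHS, chalcone synthase, did not pass at 0.4 (adjusted p = 0.226). The lower member was PAL4, of the entry enzyme family (log2FC -0.83, adjusted p = 0.0218), whose call was lost without Col-0 MS replicate 2 or 3 or without siz1-2 MS replicate 1 or 3, and with median centring and with median-of-ratios factors (log2FC between -1.0 and -0.64). Without Col-0 MS replicate 2, Col-0 MS replicate 3, siz1-2 MS replicate 1 or siz1-2 MS replicate 2, 4 members were higher.

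Some genes that respond to mineral supply were higher in siz1-2. Of the 19 sulfate genes tested, 5 were higher in siz1-2 and none lower. GGCT2;1, which recycles glutathione and is induced by sulfur shortage, had 9.61, 6.52 and 8.15 FPKM in siz1-2, against 1.24, 1.17 and 1.13 in Col-0 (log2FC 2.34 ± 0.2, adjusted p = 3.2e-05). SULTR2;1, a sulfate transporter of the vasculature, had 8.85, 8.94 and 8.4 FPKM in siz1-2, against 2.47, 1.45 and 2.33 in Col-0 (log2FC 1.86 ± 0.27, adjusted p = 0.00144). APR3, which reduces activated sulfate, had 93.3, 80.3 and 81.7 FPKM in siz1-2, against 52.2, 52.4 and 44.1 in Col-0 (log2FC 0.78 ± 0.14, adjusted p = 0.00587). The genotypes did not overlap in any of them. APR1 (log2FC 0.56, adjusted p = 0.0261) lost its call without any 1 MS library except Col-0 MS replicate 2, and with the replicate block within treatment (log2FC between 0.49 and 0.62). The sulfur-shortage marker LSU1 (log2FC 1.23, adjusted p = 0.0403) lost its call without any 1 of the 6 MS libraries or without siz1-2 IAA replicate 1 (log2FC between 0.96 and 1.4). It lost the call in several other settings too, at 1.72 with a pseudocount of 0.1.

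Of the 35 nitrate genes tested, 4 were higher and 4 lower in siz1-2. NRT2.1, the main high-affinity nitrate transporter of the root, had 38.2, 55.8 and 44.4 FPKM in siz1-2, against 18.5, 11.9 and 10.5 in Col-0 (log2FC 1.75 ± 0.23, adjusted p = 0.000603), and 8.86% of its 50-base stretches recur elsewhere. NIA2, the major nitrate reductase, had 179, 173 and 217 FPKM in siz1-2, against 95, 129 and 114 in Col-0 (log2FC 0.75 ± 0.15, adjusted p = 0.00915). GLN1;1, a cytosolic glutamine synthetase, had 367, 417 and 294 FPKM in siz1-2, against 204, 223 and 211 in Col-0 (log2FC 0.74 ± 0.13, adjusted p = 0.00399). BT1, the relative of BT2, had 6.35, 6.93 and 5.94 FPKM in siz1-2, against 13.7, 16.2 and 17 in Col-0 (log2FC -1.22 ± 0.21, adjusted p = 0.00352). BT1 and BT2 were thus lower while the transporter, the reductase and the synthetase were higher, each with the genotypes apart. The remaining calls were small. NRT3.1, the partner of NRT2.1, had a log2FC of 0.58 (adjusted p = 0.0379) and lost the call without any 1 MS library except siz1-2 MS replicate 1 or without siz1-2 IAA replicate 2 or 3, and in several other settings (log2FC between 0.51 and 0.68). SLAH3, an anion channel, had a log2FC of -0.56 (adjusted p = 0.0107) and lost the call without siz1-2 MS replicate 2, where the difference was -0.50. NRT1.5, which loads nitrate into xylem, had a log2FC of -0.49 (adjusted p = 0.035) and lost the call without any 1 of the 6 MS libraries or without siz1-2 IAA replicate 2 or 3, and in several other settings (log2FC between -0.55 and -0.39).

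Of the 38 phosphate genes tested, 4 were higher and 2 lower in siz1-2. RNS1, a secreted ribonuclease that frees phosphate, had 4.44, 11.2 and 6.01 FPKM in siz1-2, against 0.941, 2.22 and 0.573 in Col-0 (log2FC 2.16 ± 0.35, adjusted p = 0.00286). ALMT1, a malate channel of the root tip, had 32.9, 31.5 and 28.7 FPKM in siz1-2, against 6.78, 13.1 and 8.86 in Col-0 (log2FC 1.69 ± 0.24, adjusted p = 0.00112). PHT1;4, a phosphate transporter, had 57.1, 88.3 and 68.5 FPKM in siz1-2, against 28.6, 29.97 and 22.4 in Col-0 (log2FC 1.37 ± 0.19, adjusted p = 0.000923). In all 3 genes every mutant library was above every Col-0 library. PS3, a glycerol phosphate permease, was higher (log2FC 1.14, adjusted p = 0.0215) but lost the call without Col-0 MS replicate 3 or without siz1-2 MS replicate 2 or 3 (log2FC between 0.83 and 1.34). The lower members were PPCK1, a kinase of PEP carboxylase (log2FC -0.71, adjusted p = 0.0074), and WRKY75, a factor induced by phosphate shortage (log2FC -0.97, adjusted p = 0.0138), the second of which was lost without Col-0 MS replicate 2 or 3 or without siz1-2 MS replicate 1 (log2FC between -1.06 and -0.83). Both list medians lay near 0, at -0.0013 for nitrate and 0.021 for phosphate. Among 39 iron genes 3 were higher and none lower, led by NAS4, a nicotianamine synthase, with 33, 36.2 and 31.4 FPKM in siz1-2, against 12.6, 8.72 and 7.25 in Col-0 (log2FC 1.79 ± 0.22, adjusted p = 0.000422).

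Some of the enzymes that loosen and remodel the cell wall were higher in siz1-2. Of the 24 XTH genes tested, which cut and rejoin xyloglucan, 6 were higher and 1 lower, with a median log2 fold change of 0.23. XTH20 had 127, 134 and 159 FPKM in siz1-2, against 40.7, 51.8 and 57.7 in Col-0 (log2FC 1.48 ± 0.14, adjusted p = 5.72e-05). XTH26, a root hair enzyme, had 37.9, 28 and 37.7 FPKM in siz1-2, against 6.25, 10.04 and 16.2 in Col-0 (log2FC 1.71 ± 0.34, adjusted p = 0.0103). XTH12 had 69, 65 and 59.4 FPKM in siz1-2, against 23.1, 31.4 and 38.1 in Col-0 (log2FC 1.08 ± 0.17, adjusted p = 0.00263). Of the 22 expansin genes tested, 4 were higher and 1 lower. EXPA10 had 7.82, 9.26 and 9.69 FPKM in siz1-2, against 1.52, 2.05 and 1.95 in Col-0 (log2FC 2.01 ± 0.25, adjusted p = 0.000448). The expansin-like EXLB1 had 13.9, 11.6 and 20.102 FPKM in siz1-2, against 5.58, 5.92 and 5.61 in Col-0 (log2FC 1.31 ± 0.16, adjusted p = 0.000445). All 5 of these genes kept their call in every alternative, and none overlapped between the genotypes.

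Root hair markers are given beside these genes. Of the 27 members of the list, all tested, 2 were higher and none lower, the median log2 fold change was 0.34 and 23 lay above 0. Their summed level was 957, 970.3 and 968 FPKM in siz1-2, against 640.3, 645 and 771 FPKM in Col-0, so the sums did not overlap. Of single genes tested, 10.4% showed this separation upwards. The first called gene was PRP1, a hair wall protein (log2FC 0.83, adjusted p = 0.0167), whose call was lost without Col-0 MS replicate 1 or 2 or without siz1-2 MS replicate 1, and with the replicate block within treatment (log2FC between 0.71 and 0.93). The other was RHS19, a peroxidase (log2FC 0.85, adjusted p = 0.0178), whose call was lost without Col-0 MS replicate 1 or 2 or without siz1-2 MS replicate 2 or 3 (log2FC between 0.75 and 0.98). The part of root hair cells in the wall enzyme results was not tested. With IAA, 10 of the 27 were higher and none lower.

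Glutathione transferases, which conjugate glutathione to toxic or signalling molecules, had 6 higher and 1 lower member among 40 tested. GSTU20 had 81.7, 75.6 and 76.4 FPKM in siz1-2, against 37.9, 41.7 and 40.3 in Col-0 (log2FC 0.95 ± 0.12, adjusted p = 0.00038), with narrow spread in both genotypes. GSTU4 had 4.75, 4.33 and 8.04 FPKM in siz1-2, against 1.99, 1.25 and 2.01 in Col-0 (log2FC 1.44 ± 0.23, adjusted p = 0.00248). GSTF2 had 2.2, 1.98 and 5.78 FPKM in siz1-2, against 0.218, 0.406 and 0.839 in Col-0 (log2FC 1.86 ± 0.34, adjusted p = 0.00606). GSTF7, a member of a family of near-identical tandem copies, had 46.2, 91.8 and 345 FPKM in siz1-2, against 25, 26 and 30.7 in Col-0 (log2FC 2.05 ± 0.48, adjusted p = 0.0261). Its mutant libraries ranged widely with replicate 3 on top. The call was lost without Col-0 MS replicate 1, 2 or 3 or without siz1-2 MS replicate 2, and with no filter and in a fit of the 6 MS libraries alone (log2FC between 1.25 and 2.69). Its close relative GSTF6 did not pass (log2FC 1.94, adjusted p = 0.0914), with 22, 44.1 and 253 FPKM in siz1-2, against 13.9, 12.9 and 22.7 in Col-0, again with mutant replicate 3 on top. CYP71A12, of the camalexin route, showed the same pattern without passing, with 0.476, 3.81 and 69 FPKM in siz1-2, against 0.552, 0.308 and 0.429 in Col-0 (log2FC 2.84 ± 1.03, adjusted p = 0.152).

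Glucosinolates are the sulfur-rich defence compounds of the family Brassicaceae, and 3 of 29 genes tested were higher and 3 lower. BCAT4, which starts the elongation of methionine, had 42, 40.7 and 43.3 FPKM in siz1-2, against 24, 16.1 and 13.9 in Col-0 (log2FC 1.24 ± 0.2, adjusted p = 0.00271). The methyltransferases of the indole branch went opposite ways, with log2 fold changes of 2.29 ± 0.29 for IGMT2 and -1.28 ± 0.17 for IGMT1. Of their 50-base stretches 36.7% in IGMT2 and 10.4% in IGMT1 recur elsewhere, so these values are uncertain. NSP1, which diverts breakdown to nitriles, was lower (log2FC -0.97, adjusted p = 0.00829) with 28.2% recurring, and lost the call with median centring.

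In each auxin list most members did not pass the test. GH3.3 had 10.6, 14.6 and 16.2 FPKM in siz1-2, against 1.21, 1.06 and 0.932 in Col-0 (log2FC 3.17 ± 0.14, adjusted p = 9.51e-08), with the genotypes far apart. None of the 22 Aux/IAA repressors tested passed in either direction, with a median log2 fold change of -0.017 and 3 at an unadjusted p under 0.05. Of 19 SAUR genes, chosen by that symbol, 1 was higher and 1 lower. SAUR76 had 21.6, 11.8 and 17.7 FPKM in siz1-2, against 4.65, 4.66 and 6.13 in Col-0 (log2FC 1.6 ± 0.2, adjusted p = 0.000381). AT2G24400 was the lower one (log2FC -0.68, adjusted p = 0.0468), a call lost without any 1 of the 6 MS libraries, without Col-0 IAA replicate 2 or without siz1-2 IAA replicate 1, 2 or 3, and in several other settings (log2FC between -0.79 and -0.57). AT2G36210, which is annotated as SAUR-like but was not on the list, was higher as well, with 13.4, 15.4 and 11.3 FPKM in siz1-2, against 5.02, 5.48 and 5.71 in Col-0 (log2FC 1.23 ± 0.15, adjusted p = 0.000424). Among 7 GH3 genes GH3.17 was lower (log2FC -0.89, adjusted p = 0.0438), a call lost without any 1 MS library except siz1-2 MS replicate 2, without Col-0 IAA replicate 2 or 3 or without siz1-2 IAA replicate 1, 2 or 3, and in several other settings (log2FC between -1.2 and -0.58).

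The 300 bases before the annotated start of GH3.3 are given because it was the auxin gene with the largest rise. The window lies at chr2:9866563-9866862 (TAIR10.1, minus strand, written 5′ to 3′ towards the gene), and capitals mark TGTCTC, the classical auxin response element bound by ARF factors.
GH3.3: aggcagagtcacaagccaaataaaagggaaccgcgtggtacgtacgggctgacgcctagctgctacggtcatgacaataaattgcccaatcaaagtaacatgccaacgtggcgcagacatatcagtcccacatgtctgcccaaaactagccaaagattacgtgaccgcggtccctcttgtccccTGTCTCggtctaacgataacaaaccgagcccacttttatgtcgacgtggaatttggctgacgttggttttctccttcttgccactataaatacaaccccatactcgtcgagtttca
The element starts 116 bases before the gene start. Searched on both strands, TGTCTC occurred in 13% of all windows of this length, in 11.2% of those before higher DEGs and in 7.82% of those before lower DEGs. Of the 24 largest rises and falls it occurred before GH3.3, ICL and CYP705A5.

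Auxin synthesis, inactivation and transport set the level to which the response factors react. Of 15 auxin synthesis genes 3 were higher and none lower, and all 3 were nitrilases. NIT2 had 84.4, 115 and 127 FPKM in siz1-2, against 41.1, 40.9 and 30.5 in Col-0 (log2FC 1.52 ± 0.17, adjusted p = 0.00017). NIT4, whose enzyme detoxifies cyanide products, had 3.94, 4.2 and 3.81 FPKM in siz1-2, against 1.5, 1.18 and 0.646 in Col-0 (log2FC 1.51 ± 0.23, adjusted p = 0.00186), while NIT1 had a log2 fold change of 0.97 ± 0.18. All 3 kept their call in every alternative. Of 10 genes of auxin inactivation and conjugate hydrolysis 2 were higher and 1 lower. IAMT1, which methylates IAA, was higher (log2FC 0.82, adjusted p = 0.0109) and lost the call without Col-0 MS replicate 2, where the difference was 0.73. MES17, which cleaves methyl-IAA, was higher (log2FC 0.48, adjusted p = 0.0352), a call lost without any 1 MS library except siz1-2 MS replicate 3 or without siz1-2 IAA replicate 1, 2 or 3, and in several other settings (log2FC between 0.38 and 0.57). ILL6, of the amidohydrolases that cut hormone conjugates, was lower (log2FC -1.1, adjusted p = 0.0377), a call lost without any 1 of the 6 MS libraries or without siz1-2 IAA replicate 3, and in several other settings (log2FC between -1.23 and -0.95). Among 17 auxin carriers the efflux carrier PIN4 was lower, with 5.57, 5.91 and 6.26 FPKM in siz1-2, against 10.7, 9.58 and 10.1 in Col-0 (log2FC -0.73 ± 0.14, adjusted p = 0.00754). Among 21 response factors and receptors ARF9 was lower, with 5.7, 4.43 and 3.51 FPKM in siz1-2, against 10.2, 10.1 and 10.5 in Col-0 (log2FC -1.12 ± 0.21, adjusted p = 0.00689). ARF2 was lower (log2FC -0.64, adjusted p = 0.0475) but was lost without any 1 of the 6 MS libraries or without siz1-2 IAA replicate 1, 2 or 3, and in several other settings (log2FC between -0.76 and -0.52).

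Of the 33 lateral root genes tested, 4 were higher and none lower. PLT7, an AP2 factor that patterns primordia, had 2.76, 2.71 and 2.7 FPKM in siz1-2, against 0.542, 0.307 and 0.533 in Col-0 (log2FC 1.76 ± 0.2, adjusted p = 0.000249), with almost no spread in the mutant. LRP1, a marker of early primordia, had 6.67, 5.82 and 9.93 FPKM in siz1-2, against 3.26, 2.52 and 3.51 in Col-0 (log2FC 1.13 ± 0.2, adjusted p = 0.00472). GATA23, which marks founder cells, had a log2FC of 0.72 (adjusted p = 0.0388) and lost the call without any 1 of the 6 MS libraries or without siz1-2 IAA replicate 2, and with no filter and with a pseudocount of 1 (log2FC between 0.61 and 0.79). RLK7, a receptor that spaces primordia, had a log2FC of 0.48 (adjusted p = 0.0347) and lost the call without any 1 of the 6 MS libraries or without siz1-2 IAA replicate 2, and in several other settings (log2FC between 0.42 and 0.53). The genes that the study followed for lateral roots did not pass on MS. Log2 fold changes were -0.25 for ARF7, -0.19 for ARF19, -0.3 for LBD16, 0.38 for LBD18 and 0.07 for LBD29. The influx carrier LAX3 had 102, 108 and 96.9 FPKM in siz1-2, against 80.6, 84.4 and 81.3 in Col-0 (log2FC 0.31 ± 0.11, adjusted p = 0.12), so the genotypes lay apart without passing. EXPA14 had 18.1, 19.8 and 27.2 FPKM in siz1-2, against 32.7, 30.00 and 28.6 in Col-0 (log2FC -0.5 ± 0.15, adjusted p = 0.0829), and its libraries did not overlap either. Such a separation was common, as 10.4% of all genes tested showed it upwards and 22.2% downwards.

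Within the SUMO machinery, 15 genes were tested and SIZ1 was the lower one. SCE1, the SUMO-conjugating enzyme with which SIZ1 works, was higher (log2FC 0.54, adjusted p = 0.0329), but the call was lost without any 1 MS library except Col-0 MS replicate 3, and without the variance trend and with the replicate block within treatment (log2FC between 0.42 and 0.64). STOP1, a zinc finger factor known to be sumoylated, had a log2FC of 0.06 and did not pass.

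Salicylic acid, ethylene and jasmonate are hormones of defence. Of 24 salicylic acid genes 2 were higher and none lower, of which EPS1, an enzyme that completes salicylic acid synthesis, had 13.6, 15 and 12.2 FPKM in siz1-2, against 8.32, 8.67 and 6.59 in Col-0 (log2FC 0.76 ± 0.14, adjusted p = 0.007). The list's median was -0.13. UGT76B1, which glucosylates immune signals, had a log2FC of 0.53 (adjusted p = 0.0135) and lost the call without Col-0 MS replicate 1 or 2 or without siz1-2 MS replicate 1 or 2 (log2FC between 0.46 and 0.58). None of 11 camalexin genes passed, with 5 at an unadjusted p under 0.05. Of 31 ethylene genes 3 were higher and 1 lower, led by the ethylene and jasmonate response factor ORA59 with 9.12, 5.44 and 12.6 FPKM in siz1-2, against 3.08, 2.83 and 2.5 in Col-0 (log2FC 1.46 ± 0.29, adjusted p = 0.0103). Of 32 jasmonate genes 2 were higher and 4 lower. The jasmonate median was -0.32, against -0.083 over all genes tested. Of the 32, 5 lay above 0 and 14 had an unadjusted p under 0.05, beside 3484 of all 18743 genes. OPR2, of the oxophytodienoate reductase family, was higher (log2FC 0.69, adjusted p = 0.00372), and the repressor gene JAZ1 was lower (log2FC -0.93, adjusted p = 0.0115), the second of which was lost without Col-0 MS replicate 2 (log2FC between -1.04 and -0.87).

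Among 36 heat genes, none was higher and 3 lower. MBF1C, a coactivator of the heat response, had 7.95, 8.64 and 8.32 FPKM in siz1-2, against 17.6, 18.6 and 21.7 in Col-0 (log2FC -1.17 ± 0.14, adjusted p = 0.000376), and the genotypes lay apart. HSFA2, a heat stress factor, was lower (log2FC -1.12, adjusted p = 0.0166) and lost the call without Col-0 MS replicate 3 or without siz1-2 MS replicate 3, and with the replicate block within treatment (log2FC between -1.32 and -0.87). FLC, the flowering repressor, had 0.564, 0.154 and 0.81 FPKM in siz1-2, against 2.53, 1.79 and 2.38 in Col-0 (log2FC -1.49 ± 0.29, adjusted p = 0.00895), the only member of 10 flowering genes to pass. Of 20 DNA damage genes 2 were higher, led by ANAC044, a factor of the damage checkpoint, with 2.45, 1.45 and 2.44 FPKM in siz1-2, against 0.558, 0.16 and 0.229 in Col-0 (log2FC 1.68 ± 0.25, adjusted p = 0.00134). Of 23 gibberellin genes GASA5, a small cysteine-rich protein, had 10.3, 10.4 and 14 FPKM in siz1-2, against 3.61, 3.02 and 4.26 in Col-0 (log2FC 1.54 ± 0.19, adjusted p = 0.000491). GA2OX6, which inactivates gibberellin, had a log2FC of 0.85 (adjusted p = 0.00113). PIP2;5 was the leading aquaporin, with 5.31, 4.95 and 7.02 FPKM in siz1-2, against 1.54, 2.52 and 1.85 in Col-0 (log2FC 1.35 ± 0.26, adjusted p = 0.00777). No member passed among 22 brassinosteroid genes and 37 arabinogalactan proteins, with 6 and 7 at an unadjusted p under 0.05.

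**Figure D4:**
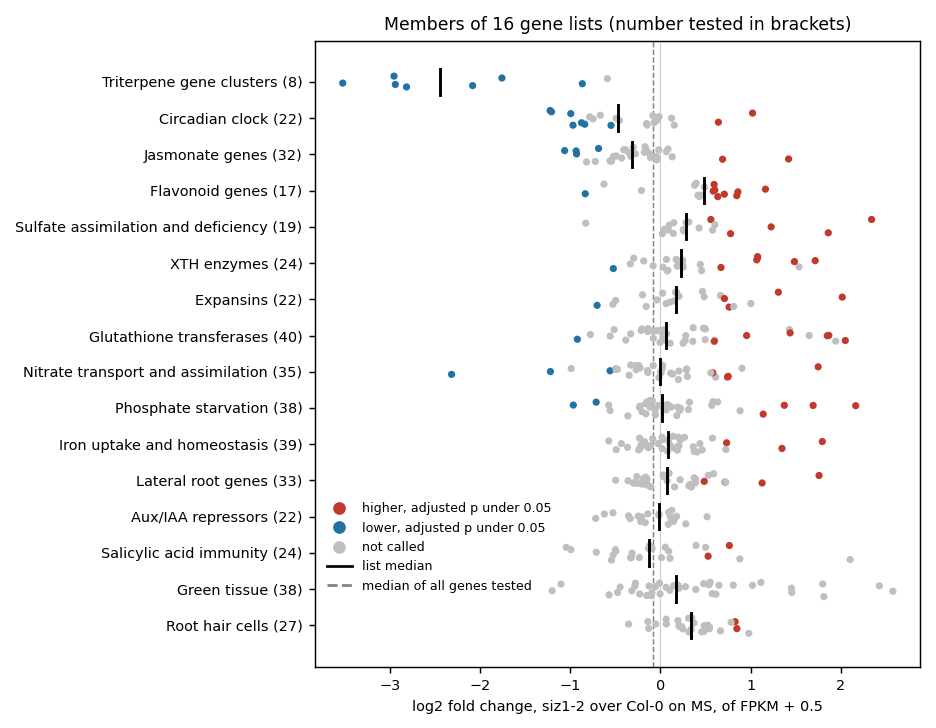
Log2 fold change (siz1-2 over Col-0 on MS, of FPKM + 0.5) of each tested member of 16 gene lists, with red points higher and blue points lower at an adjusted p under 0.05, grey points not called, a black bar at the list median and a dashed line at the median of all genes. The triterpene bar lies farthest left at -2.45, the flavonoid bar is at 0.49, and the Aux/IAA and green tissue lists hold no coloured point.

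Across the 55 lists, 1178 genes were tested, of which 81 were higher and 55 lower, beside 2.75% and 2.55% of all genes. Both counts lie above these shares. Because the lists were chosen with earlier results of these data known, this is a description and no evidence of an excess. Cell type markers checked the labelled tissue. Genes of green tissue were at 349, 403 and 514 FPKM in siz1-2, against 476, 442 and 441 FPKM in Col-0, summed over 38 genes, and none passed in either direction, with 3 at an unadjusted p under 0.05. Endodermis markers were at 515, 528 and 436 FPKM in siz1-2, against 492, 567 and 619.5 FPKM in Col-0. Of the 10 tested, CASP5, a Casparian strip protein, was higher (log2FC 0.74, adjusted p = 0.0257), a call lost without any 1 MS library except siz1-2 MS replicate 3 (log2FC between 0.54 and 0.95). Xylem markers were at 292, 381 and 287 FPKM in siz1-2, against 397, 323 and 312 FPKM in Col-0. Of the 17 tested, ACL5, a thermospermine synthase, was lower (log2FC -0.5, adjusted p = 0.0102), a call lost with median centring and with median-of-ratios factors. Stem cell niche markers were at 63.9, 61.1 and 57.4 FPKM in siz1-2, against 62.8, 52.7 and 59.6 FPKM in Col-0. Root cap markers were at 55.2, 65.1 and 46.2 FPKM in siz1-2 and 68.9, 65.6 and 68.2 FPKM in Col-0, and markers of non-hair epidermis at 48.2, 48.5 and 47.5 FPKM in siz1-2 and 60.8, 55.8 and 58.8 FPKM in Col-0. The last 2 sums were lower in every mutant library, a separation that 22.2% of single genes tested showed downwards. Of the 6 root cap genes tested 1 lay above 0, and CEL5, a cellulase, was lower (log2FC -0.7, adjusted p = 0.012), a call lost without Col-0 MS replicate 1 or without siz1-2 MS replicate 1 or 3 (log2FC between -0.83 and -0.6). None of the 8 non-hair genes passed, with 3 at an unadjusted p under 0.05.

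The same genotypes after IAA gave a repeat of the genotype difference in 6 other libraries, which share the residual variance of the fit with the MS libraries. These libraries were uneven in green tissue markers. The summed level was 265, 1487 and 228 FPKM in siz1-2 with IAA, against 1955, 560 and 363 FPKM in Col-0 with IAA. The part of green tissue in the values with IAA was not tested. With IAA, 604 genes were DEGs (3.22%), of which 292 were higher (1.56%) and 312 lower (1.66%). Of the 421 MS DEGs, 408 had the same sign with IAA (234 higher and 174 lower), and 282 of them also had an adjusted p under 0.05, which is 67.0% of the MS DEGs against 9.12% of all genes in either direction (3.91% higher and 5.21% lower). DEGs of the same direction in both were 228, or 54.2% of the MS list and 37.7% of the IAA list. The median log2 fold change with IAA was 1.06 for the genes higher on MS and -1.14 for those lower.

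Named genes differed in how much of the MS difference was seen with IAA. In the IAA libraries the log2FC of AT4G33720 was 3.81 (adjusted p = 0.00159), that of ChlAKR 3.66 (adjusted p = 3.15e-06), that of CYP708A2 -2.84 (adjusted p = 0.00117), that of FLS1 1.26 (adjusted p = 0.000271) and that of LHY -0.69 (adjusted p = 0.0286). Values were smaller and did not pass for MRN1 at -0.95 (adjusted p = 0.196), THAS1 at -1.46 (adjusted p = 0.108), CCA1 at -0.1 (adjusted p = 0.864), NRT2.1 at 0.26 (adjusted p = 0.503), GLP9 at 0.09 (adjusted p = 0.924) and SAUR76 at -0.05 (adjusted p = 0.89). A p that misses the threshold does not show that these genes had no difference with IAA. Whether the difference itself changed between MS and IAA was tested for every gene, and 3 genes passed (0.016%), 2 of them MS DEGs, with 113 MS DEGs at an unadjusted p under 0.05. The MS DEGs were GH3.3 (change of -3.06 ± 0.2 on the log2 scale, adjusted p = 2.32e-05) and AT2G36210 (change of -1.57 ± 0.22, adjusted p = 0.0369). The third gene, AT5G14690, was no MS DEG (log2FC -0.31 on MS and -1.62 with IAA, adjusted p of the change = 0.00949). The next smallest p-values among MS DEGs did not pass, with a change of -1.53 ± 0.24 for AT3G59930 (adjusted p = 0.08), -1.66 ± 0.28 for SAUR76 (adjusted p = 0.113) and -1.34 ± 0.24 for AT1G68500 (adjusted p = 0.123). With 1 library left out, 3 MS DEGs passed without siz1-2 MS replicate 3, 2 passed without siz1-2 MS replicate 2, 2 passed without the first Col-0 library with IAA, and 1 passed without any other library.

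**Figure D5:**
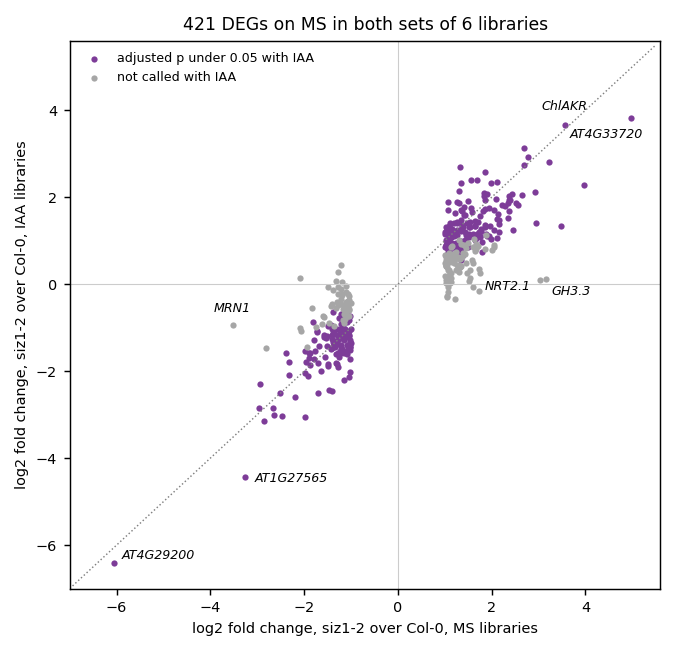
Log2 fold change of siz1-2 over Col-0 for the 421 MS DEGs, in the MS libraries (x axis) and in the IAA libraries (y axis), with purple points at an adjusted p under 0.05 with IAA and a dotted line of equal change. Most points share their sign (408 of 421), and GH3.3 and MRN1 are among those that lie off the line towards 0 on the y axis.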

How the data were processed

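FPKM per gene and library were deposited by the authors in 1 table, produced with the platform of the sequencing company. The aligner, the genome build and the annotation were not given in the sources used here. The deposited values were transformed to log2(FPKM + 0.5) without further normalization between libraries, keeping genes that reached 1 FPKM in 3 or more of them. The 4 group means were estimated from all 12 libraries in limma 3.58.1 (R 4.3.3, with a variance trend), and the contrast siz1-2 MS minus Col-0 MS was tested two-sided, with Benjamini-Hochberg adjustment over 18743 genes. The fit was tested on simulated data. Tables and figures were made in Python 3.11.15 with pandas 2.3.3, numpy 2.4.6 and matplotlib 3.10.9.

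Genes were named by a rule: the SUMO, auxin and lateral root genes that the study follows, the 12 largest rises and falls among DEGs whose mean reached 5 FPKM in the higher genotype, with no overlap between libraries, up to 5 leading or role-defining members of each list described, the 5 MS DEGs with the smallest p for a changed difference with IAA, and the neighbours of SIZ1. Other called list members are named where they complete a count. One gene that the rule names is not reported here. The 55 lists (45 of pathways and families, 10 of cell types) and the members were chosen with earlier results of these data known. Of their members 1628 were matched to 1 gene and 73 were not, 19 were dropped because the symbol belongs to another gene, 1507 are in the table and 1178 genes were tested. Gene names, order and the windows before gene starts come from RefSeq TAIR10.1, in which all 23853 genes were found by ID. Exonic 50-base stretches of 407 genes were searched on both strands of the whole reference genome, and a repeat within the same gene counted as well. Of these genes 340 had no repeated stretch and 10 had over 20%.

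Same-numbered libraries of the genotypes deviated together on MS (correlations of 0.119, 0.203 and 0.337), while MS libraries of unlike number lay between -0.28 and 0.15. The numbers were taken to pair the genotypes on MS, and not with IAA (-0.279, -0.273 and 0.057). The main fit has no term for this pairing, which enters only in the alternatives with a block. The alternatives were pseudocounts of 0.1 and 1, a filter of 5 FPKM or none, median centring, median-of-ratios factors or quantile normalization, limma without the trend or with robust estimation, only the 6 MS libraries, a block for the replicate number, other limits on fold and p, and leaving out every library in turn.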

Additional observations from a re-analysis of the deposited data

Results flagged for a closer look

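The genotype difference of GH3.3 was not the same on MS and with IAA. With IAA it had 712, 766 and 819.7 FPKM in siz1-2, against 763, 639.6 and 728 in Col-0, so that the genotypes overlapped at a level far above that of either on MS, and its log2 fold change was 0.11, against 3.17 on MS. The change of the difference was -3.06 ± 0.2 on the log2 scale (limma adjusted p = 2.32e-05).

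AT2G36210, a SAUR family gene, differed in the same direction. On MS it had 13.4, 15.4 and 11.3 FPKM in siz1-2, against 5.02, 5.48 and 5.71 in Col-0, and with IAA it had 17.1, 18.2 and 14.5 FPKM in siz1-2, against 24.9, 18.6 and 20.2 in Col-0. The change of the difference was -1.57 ± 0.22 on the log2 scale (limma adjusted p = 0.0369). The alternatives under which a single gene passed this test are given with the limits of the processing.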

How the results depend on the processing

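No called gene that is named changed sign under any of the 24 alternatives. The median over all genes did, at 0.04 with median centring and 0.0085 with median-of-ratios factors. Medians near 0 (the nitrate, phosphate and Aux/IAA lists) and the uncalled ARF4, AT5G60390, GI, TOC1, PRR5 and LBD29 also changed sign under some. SIZ1 kept its call in all of them (-0.81 to -0.67 with a library left out). The count of DEGs moved from 242 higher and 179 lower to 516 and 478 with no fold limit and 460 and 418 with a fold limit of 0.58 on the log2 scale, and the lower DEGs to 111 at an adjusted p under 0.01. With a library left out it lay between 190 and 270 higher and 136 and 213 lower, and all 421 DEGs remained among the 483 called without Col-0 IAA replicate 1, in which 1848 genes lay over 1 on the log2 scale from the mean of both other replicates. MS DEGs called also with IAA ranged from 222 to 318 with a library left out.

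In the clock list, lower members were 4 with a filter of 5 FPKM, 12 with the replicate block in the 6 MS libraries and 4 to 11 with a library left out, and higher members were 1 with no filter, 1 with the replicate block within treatment and 1 to 2 with a library left out. In the flavonoid list, higher members were 4 to 9 and lower members 0 to 2 with a library left out, and lower members were 0 with median centring and with median-of-ratios factors. With the replicate block in the 6 MS libraries, 12 flavonoid members were higher, against 8 in the main fit. Lower triterpene members were 5 to 8 with a library left out. The test of a changed difference passed 1 MS DEG with median centring, median-of-ratios factors, no filter or the replicate block within treatment, and 1 to 3 with a library left out. The cause of these changes was not tested.

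With the replicate block the 6 MS libraries gave 512 DEGs, 419 of them shared with the 421, and the block within treatment gave 406, 382 of them shared; beyond the calls named beside their genes, the clock list and the test of a changed difference, the block moved none of the other DEG, flavonoid and triterpene counts by over 1.5 times. Of the 223 called genes that are named or counted by name, 120 kept the call in every alternative and 103 lost it in at least 1. Genes near 0.5 FPKM are limited by the unknown depth and by the pseudocount. The 3 libraries a group, whose origin is not described, limit all p-values.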

Other observations

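The following gene groups were put together from the annotation after their values were seen, so their counts are descriptions. Among 58 class III peroxidases, wall enzymes that use hydrogen peroxide, 13 were higher in siz1-2 on MS and none lower, beside 2.75% and 2.55% of all genes, at a median log2 fold change of 0.31. PRXCB had 188, 423 and 373 FPKM in siz1-2, against 91.1, 79.99 and 88.3 in Col-0 (limma log2FC 1.83 ± 0.22, adjusted p = 0.00038). AT3G49960 had 78.4, 79.2 and 83.6 FPKM in siz1-2, against 35.3, 34.7 and 41.9 in Col-0 (log2FC 1.1 ± 0.16, adjusted p = 0.00105). AT5G47000 had 2.67, 5.61 and 2.87 FPKM in siz1-2, against 0.18, 0.12 and 0.129 in Col-0 (log2FC 2.65 ± 0.3, adjusted p = 0.000265). In all Col-0 libraries with IAA it was also under 0.3 FPKM. RHS19, one of the 13, is on the root hair list, whose sums were 957, 970.3 and 968 FPKM in siz1-2, against 640.3, 645 and 771 FPKM in Col-0, and the part of root hair cells in the peroxidase values was not tested. In the list of peroxidases and NADPH oxidases that was not put together this way, none of 6 passed, with 2 at an unadjusted p under 0.05. Among 18 chitinases, which cut fungal cell walls, 6 were higher and none lower, at a median of 0.48. HCHIB, the basic chitinase of the vacuole, had 57.4, 74.2 and 119 FPKM in siz1-2, against 24.5, 25.3 and 28.7 in Col-0 (log2FC 1.59 ± 0.21, adjusted p = 0.00054). CHI, AT2G43580 and AT2G43590 form a run of neighbouring DEGs, and AT2G43590 had 188, 297 and 609 FPKM in siz1-2, against 90.03, 87.2 and 82.2 in Col-0 (log2FC 1.9 ± 0.31, adjusted p = 0.00286), with mutant replicate 3 on top. Among 45 lipid-transfer and hybrid proline-rich proteins 9 were higher and none lower, led after AT4G12500 by AT2G37870, with 18.9, 31.4 and 20.6 FPKM in siz1-2, against 4.49, 6.07 and 7.06 in Col-0 (log2FC 1.9 ± 0.24, adjusted p = 0.000424). Lectins were not raised as a group: of 47, 7 were higher and 3 lower, at a median of -0.03. The legume lectin AT3G15356 had 59.7, 67.9 and 83.7 FPKM in siz1-2, against 13.2, 11.9 and 14.1 in Col-0 (log2FC 2.38 ± 0.17, adjusted p = 5.96e-06). The jacalin-type AT5G35940 had 8.15, 10.8 and 6.99 FPKM in siz1-2, against 26.5, 24.2 and 19.5 in Col-0 (log2FC -1.4 ± 0.17, adjusted p = 0.000376).

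On the lower side, genes of sugar supply and sugar signalling were grouped in the same way. Of 8 trehalose phosphate synthase and synthase-like genes, 4 were lower and none higher, at a median log2 fold change of -0.69. TPS11 had 2.23, 2.05 and 1.98 FPKM in siz1-2, against 11.7, 9.05 and 8.41 in Col-0 (log2FC -1.97 ± 0.21, adjusted p = 0.00014). TPS8 had 5.79, 5.23 and 4.88 FPKM in siz1-2, against 23.4, 15.5 and 12.6 in Col-0 (log2FC -1.56 ± 0.26, adjusted p = 0.00319). The log2FC was -1.23 ± 0.16 for TPS9 and -0.8 ± 0.13 for TPS10. Of 7 SWEET sugar transporters 3 were lower and none higher. SWEET16 of the vacuole had 8.11, 8.93 and 6.15 FPKM in siz1-2, against 19.4, 21.1 and 21.9 in Col-0 (log2FC -1.39 ± 0.14, adjusted p = 0.000122). SWEET12 had 2.61, 3.14 and 3.76 FPKM in siz1-2, against 14.9, 8.02 and 10.2 in Col-0 (log2FC -1.62 ± 0.28, adjusted p = 0.00419). SWEET11 had a log2FC of -1.43 (adjusted p = 0.0428) and lost the call without any 1 MS library except Col-0 MS replicate 2, without Col-0 IAA replicate 2 or 3 or without siz1-2 IAA replicate 3, and in several other settings (log2FC between -1.68 and -1.14). The transcription factor bZIP1, which acts in low energy, had 4.36, 7.42 and 5.32 FPKM in siz1-2, against 22.7, 16.2 and 17.3 in Col-0 (log2FC -1.65 ± 0.23, adjusted p = 0.00104). Of 42 amino acid exporters of the UMAMIT type 4 were lower and none higher, and UMAMIT20, the neighbour of UMAMIT17, had 7.67, 10.3 and 6.28 FPKM in siz1-2, against 26.1, 21.6 and 22.9 in Col-0 (log2FC -1.51 ± 0.18, adjusted p = 0.000282).

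Some DEGs lay side by side. There were 21 runs of neighbouring DEGs of the same direction, holding 47 DEGs (26 higher and 21 lower), and 4 runs had at least 3 genes. Beside the triterpene and chitinase runs, the fourth was AT1G60730, AT1G60740 and AT1G60750, with log2 fold changes of 1.65, 2.11 and 1.33.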
